A study of Mus musculus with 6 samples.

Results

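The genes of mitochondrial ribosomal proteins were followed in RNA sequencing of wild-type mouse bone marrow-derived macrophages, primary cells grown from bone marrow with M-CSF at 20 ng/ml. In 3 libraries the cells had been pretreated with a KAT8-inhibitor, and in the other 3 with DMSO, a common solvent for such compounds. All 6 cultures were then stimulated for 6 h with 100 ng/ml of R848, an agonist of the endosomal receptor TLR7, so no group was left unstimulated. The labels used here give neither the name and dose of the inhibitor nor the length of pretreatment, nor whether replicates came from separate animals. Members were all genes whose symbol is Mrpl or Mrps followed by a number, with or without a letter from a to c, without pseudogenes. The rule found 78 of the 34745 genes in the count table, of which 49 are named for the large subunit and 29 for the small subunit.

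The mitochondrial ribosome, or mitoribosome, translates the few mRNAs of the mitochondrial genome, which encode core subunits of the respiratory chain and of ATP synthase. Its ribosomal RNAs come from mitochondrial DNA, but every one of its proteins is encoded in the nucleus, made in the cytosol and imported. Some of these proteins descend from those of the bacterial ribosome, and others were added in the mitochondrial lineage. Macrophages activated through Toll-like receptors are known to shift their energy metabolism, with less reliance on respiration. KAT8 (MOF) belongs to the MYST family of acetyltransferases and is best known for acetylating histone H4 in nuclear complexes, and a mitochondrial pool has been described.

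Libraries held 18441352 to 25089320 counts, and 13815 genes passed the filter on low counts. All 78 members passed it, with 68 to 1903 counts per member and library, so none was lost to depth. The 10 macrophage markers were all detected, and Csf1r, the M-CSF receptor, averaged 463 ± 4.90 CPM with the inhibitor and 474 ± 30.2 CPM with DMSO (SD, n = 3 each; CPM, read counts scaled to library size with TMM factors). The summed level of those 10 markers was 7894 to 7987 CPM with the inhibitor and 12168 to 13906 CPM with DMSO, and 7 of them fell. Lyz2 made up most of that sum, averaging 4190 CPM with the inhibitor and 8596 CPM with DMSO. Spi1, Cd68 and Csf1r did not pass. Stromal markers were also present, summing to 2023 to 2156 CPM with the inhibitor and 4534 to 5343 CPM with DMSO, and 8 of 10 fell. Neutrophil, lymphocyte, and erythroid and mast cell markers were each under 10 CPM in sum in every library. At 0 in every library were 4 of 8 neutrophil, 3 of 8 lymphocyte and 3 of 6 erythroid and mast cell markers. The part of these markers' shifts in the results below was not tested, and in bulk RNA fewer cells of a type and less RNA per cell cannot be told apart.

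Most mitoribosomal genes moved little in either direction. By the quasi-likelihood test of edgeR, adjusted by Benjamini and Hochberg's method over all tested genes, 22 of 78 members rose (28.2%) and 8 fell (10.3%) at an adjusted p under 0.05, and 48 did not pass. Among all tested genes 24.9% rose and 26.5% fell, so the share of members that rose was near the background and the share that fell was below it. The median log2 fold change of members was 0.10, against 0.01 over all tested genes. All 22 members that rose did so by less than 1.5-fold, and of those that fell, Mrpl54 and Mrps28 passed that size and Mrpl54 alone reached 2-fold. The median size of change, whatever its sign, was 0.19 on the log2 scale for members and 0.30 for all tested genes. The inhibitor libraries lay entirely above the DMSO libraries for 27 members and entirely below them for 10, where the same held for 30.3% and 30.3% of all tested genes. Besides the called members, these were Mrpl13, Mrpl20, Mrps7, Mrps10 and Mrps27 above, and Mrpl23 and Mrpl38 below, none of which passed the test. Without DMSO replicate 2, Mrps7 passed, at adjusted p 0.0408, and with library totals alone so did Mrps7, Mrps10, Mrps27, Mrpl13 and Mrpl20, at adjusted p 0.00354 to 0.0125. The direction of the balance was the same when libraries were scaled by their totals alone, but the split moved to 38 higher and 4 lower members. With that scaling the median of all tested genes was itself shifted to 0.12, with 4888 genes higher and 2842 lower.

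**Figure D1:**
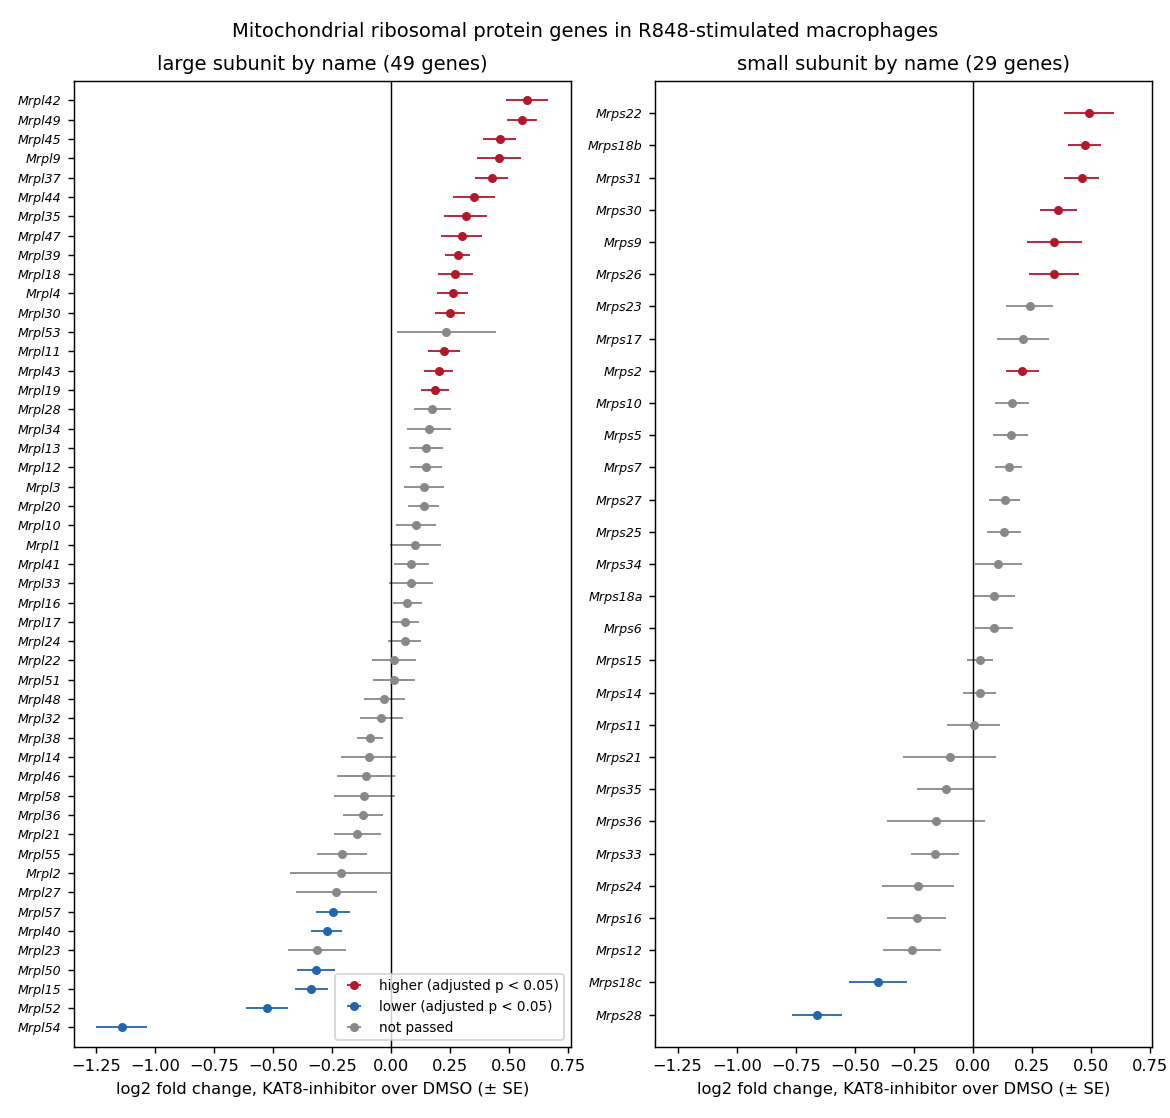
Log2 fold change (inhibitor over DMSO, ± SE) of each of the 49 large-subunit and 29 small-subunit genes by name, ordered by value and coloured by call. Most genes lie within 0.5 of 0 on either side, and Mrpl54 stands apart at -1.14.

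As a whole, member mRNA was slightly more abundant with the inhibitor. The 78 members summed to 2221, 2165 and 2188 CPM in the inhibitor libraries, against 1961, 2126 and 2045 CPM in the DMSO libraries. The groups did not overlap, though the lowest inhibitor sum came close to the highest DMSO sum. Per kilobase of mRNA, members had a median level of 19.6 CPM, against 8.51 CPM for all tested genes. Their levels ran from 2.87 CPM per kilobase for Mrps35 to 93.7 CPM per kilobase for Mrpl20.

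Mrpl54, a large-subunit protein with no bacterial counterpart, changed most of all members. The gene (ENSMUSG00000034932) lies on the minus strand at chr10:81264713-81266934 of the mm10 build. It had 15.1, 11.8 and 12.8 CPM in the inhibitor libraries, against 29.3, 31.6 and 26.7 CPM in the DMSO libraries. All 3 inhibitor libraries were thus well below the lowest DMSO library. The difference was 2.21-fold (log2 fold change -1.14, SE 0.11, adjusted p 6.05e-05, edgeR). No exon of Mrpl54 overlaps another annotated gene.

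Mrps28 (ENSMUSG00000040269, chr3:8802146-8923918, minus strand), a small-subunit protein with a bacterial counterpart, had the next largest fall. It had 11.1, 9.71 and 10.4 CPM with the inhibitor, against 14.5, 18.2 and 16.6 CPM with DMSO. On the log2 scale the change was -0.66 (SE 0.10, adjusted p 0.00106). The groups did not overlap, and the DMSO libraries were the more scattered. Mrpl52 (ENSMUSG00000010406, chr14:54426909-54429756, plus strand), a mitochondrion-specific protein of the large subunit, was the second most abundant member per kilobase, at 86.1 CPM. Its level was 34.5, 28.7 and 30.1 CPM with the inhibitor, against 41.8, 48.5 and 44.0 CPM with DMSO. These groups were also apart, and the log2 fold change was -0.53 (SE 0.09, adjusted p 0.0014).

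The other members that fell did so by less. Mrpl15 (chr1:4773206-4785739, minus strand), counterpart of a bacterial large-subunit protein, had 22.6, 23.0 and 24.6 CPM with the inhibitor, against 27.8, 29.8 and 31.0 CPM with DMSO (log2 fold change -0.34, SE 0.07, adjusted p 0.004). Mrpl50 (chr4:49512596-49521093, minus strand), mitochondrion-specific, had 22.8, 22.7 and 24.2 CPM with the inhibitor, against 27.0, 27.8 and 32.0 CPM with DMSO (log2 fold change -0.32, SE 0.08, adjusted p 0.0112). Both were lower in every inhibitor library than in any DMSO library. Mrpl40 and Mrpl57, both mitochondrion-specific large-subunit proteins, fell by 0.27 and 0.25 on the log2 scale, with adjusted p 0.00954 and 0.0203. With libraries scaled by their totals, Mrpl50, Mrpl40, Mrpl57 and Mrps18c no longer passed, at adjusted p 0.0566, 0.0611, 0.132 and 0.0691. Mrpl57 also missed the threshold in DESeq2, at adjusted p 0.0576, and without inhibitor replicate 1, inhibitor replicate 3 or DMSO replicate 2, at adjusted p 0.0542, 0.0776 and 0.0595.

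Among the members that rose, Mrpl42 and Mrpl49, both mitochondrion-specific and of the large subunit, had the largest changes. Mrpl42 (ENSMUSG00000062981, chr10:95480805-95501940, minus strand) had 34.9, 33.1 and 28.3 CPM with the inhibitor, against 21.6, 20.6 and 22.4 CPM with DMSO. Its log2 fold change was 0.58 (SE 0.09, adjusted p 0.000924), or 1.49-fold. Mrpl49 (ENSMUSG00000007338, chr19:6053622-6057785, minus strand) had 36.8, 38.7 and 38.1 CPM with the inhibitor, against 24.2, 26.7 and 26.3 CPM with DMSO. Its libraries were close together within each group and far apart between groups, and it had the smallest adjusted p of the members that rose (log2 fold change 0.55, SE 0.06, adjusted p 0.000179). Of the exon bases of Mrpl49, 4.85% overlap Syvn1 on the opposite strand.

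Mrps22, Mrps18b and Mrps31, small-subunit proteins all classed as mitochondrion-specific by the nomenclature, rose by similar amounts. Mrps22 (chr9:98588730-98601660, minus strand), mutated in a human mitochondrial disease, had 19.9, 20.8 and 24.1 CPM with the inhibitor, against 14.1, 14.6 and 17.3 CPM with DMSO (log2 fold change 0.49, SE 0.11, adjusted p 0.00536). Mrps31 (chr8:22411361-22429665, plus strand) had 19.9, 19.5 and 21.2 CPM with the inhibitor, against 14.1, 15.3 and 14.7 CPM with DMSO (log2 fold change 0.46, SE 0.07, adjusted p 0.00103). In neither gene did the groups overlap. Mrpl45 (chr11:97315716-97329920, plus strand), which anchors the mitoribosome to the inner membrane, had 53.4, 49.5 and 57.6 CPM with the inhibitor, against 37.6, 41.0 and 38.0 CPM with DMSO. This was a rise of 1.38-fold (log2 fold change 0.46, SE 0.07, adjusted p 0.000873), again with no overlap.

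**Figure D2:**
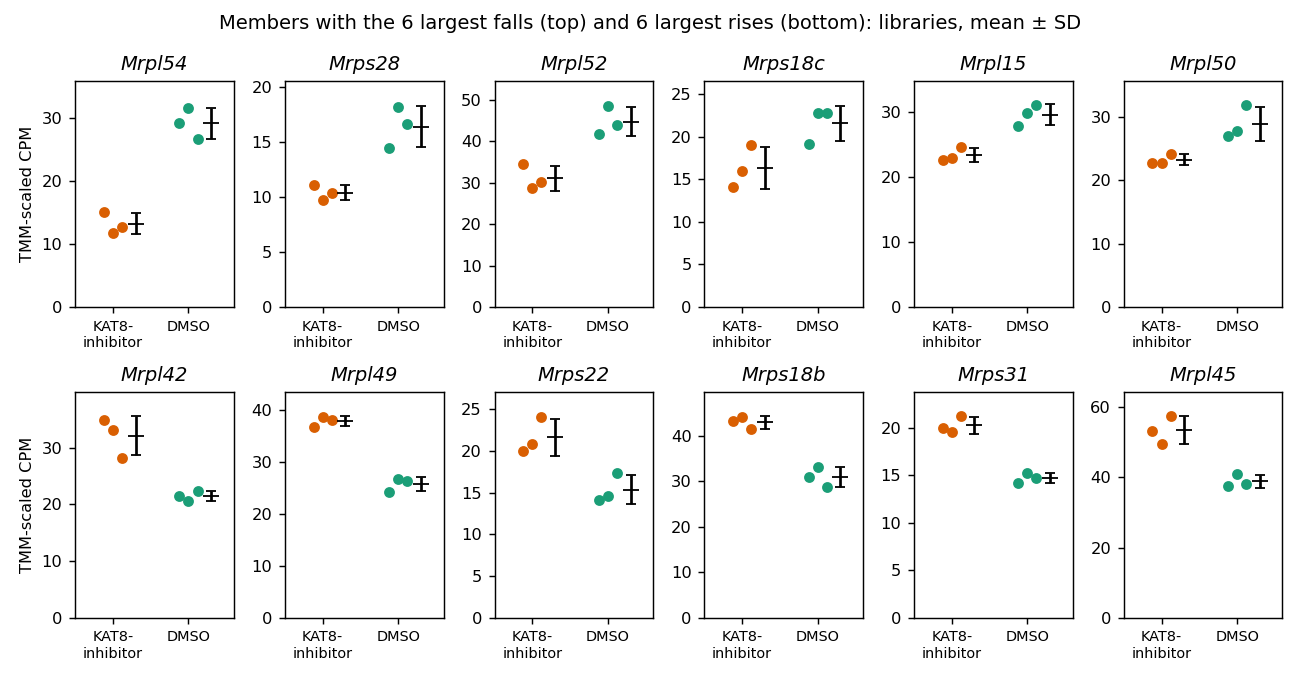
TMM-scaled CPM in each library, with mean and SD (n = 3 per group, inhibitor left of DMSO), for the 6 members with the largest falls (top row) and the 6 with the largest rises (bottom row). In every panel the groups are apart, with the narrowest gap for Mrps18c.

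The remaining members that rose were Mrpl9, Mrpl37, Mrps30, Mrpl44, Mrps9, Mrps26, Mrpl35, Mrpl47, Mrpl39, Mrpl18, Mrpl4, Mrpl30, Mrpl11, Mrps2, Mrpl43 and Mrpl19, in order of their log2 fold change. Their changes ran from 0.46 for Mrpl9 (adjusted p 0.0038) to 0.19 for Mrpl19. Mrpl37, mitochondrion-specific, averaged 44.4 ± 0.817 CPM with the inhibitor and 33.1 ± 2.77 CPM with DMSO (log2 fold change 0.43, adjusted p 0.00129). Mrpl44, whose product has a ribonuclease III-like fold, averaged 28.3 ± 2.14 CPM with the inhibitor and 22.2 ± 2.02 CPM with DMSO (log2 fold change 0.35, adjusted p 0.0111). Some calls among the smaller changes were near the threshold and were lost when 1 library was left out. Such fits also have fewer libraries to test with. In the fits where Mrps9 was lost, its log2 fold change ran from 0.21 to 0.38, against 0.35 with all libraries. Mrps9 no longer passed without any of the inhibitor replicates or DMSO replicate 2, and Mrps26 without inhibitor replicate 2, DMSO replicate 1 or DMSO replicate 2. Mrpl35 no longer passed without inhibitor replicate 1 or 2 or DMSO replicate 1 or 3, and Mrpl47 without inhibitor replicate 1 or 3 or DMSO replicate 1 or 2. The same held for Mrpl18 without inhibitor replicate 2, for Mrpl43 without inhibitor replicate 2 or 3 or DMSO replicate 1, and for Mrpl19 without inhibitor replicate 1 or 3 or any DMSO replicate. In these fits the adjusted p was 0.05 to 0.109. Mrpl43 and Mrpl19 also missed the threshold in DESeq2, at adjusted p 0.0524 and 0.0816, and Mrps9 with GC and length trends removed, at 0.0652.

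The genes of Mrps18a, Mrps18b and Mrps18c, 3 relatives of a single bacterial small-subunit protein, did not move together. Mrps18b (ENSMUSG00000024436, chr17:35910379-35916389, minus strand) had 43.3, 44.3 and 41.5 CPM with the inhibitor, against 31.0, 33.2 and 28.8 CPM with DMSO, a rise of 0.47 (SE 0.07, adjusted p 0.000633). Mrps18c (ENSMUSG00000016833, chr5:100798627-100804471, plus strand) had 14.1, 15.9 and 19.0 CPM with the inhibitor, against 19.2, 22.8 and 22.8 CPM with DMSO. Its groups were apart by a narrow margin, and its fall (log2 fold change -0.40, SE 0.12, adjusted p 0.0236) was lost without inhibitor replicate 1, inhibitor replicate 2, DMSO replicate 2 or DMSO replicate 3, at adjusted p 0.0698 to 0.0717. Mrps18a, which sits in the large subunit despite its name, had 37.0, 31.2 and 33.3 CPM with the inhibitor, against 33.7, 33.0 and 28.6 CPM with DMSO. These groups overlapped (log2 fold change 0.09, approximate 95% interval -0.08 to 0.26, adjusted p 0.421). Antisense gene Gm16279 overlaps 30.5% of the exon bases of Mrps18b, and Gm43511, on the same strand, overlaps 23.2% of those of Mrps18c. Those overlapping genes held only 34 and 123 counts over all libraries.

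Of the members chosen for a role of their own, Mrpl45, Mrps30, Mrps18b, Mrps18c, Mrpl11 and Mrps2 were called, and the others did not pass the test. Mrpl12, part of the stalk that recruits translation factors and a binding partner of the mitochondrial RNA polymerase, had 73.3, 70.6 and 74.3 CPM with the inhibitor, against 59.5, 71.0 and 66.2 CPM with DMSO. The ranges overlapped slightly (log2 fold change 0.15, approximate 95% interval 0.02 to 0.28, adjusted p 0.0978). The interval is a normal approximation and too narrow, as the unadjusted p of the edgeR test was 0.0577. Without DMSO replicate 2 the adjusted p of Mrpl12 was 0.0305, at a log2 fold change of 0.21. The gene also passed with library totals alone (0.00751) and with GC and length trends removed (0.0225). Mrpl58, also called ICT1, a peptidyl-tRNA hydrolase that rescues stalled ribosomes, averaged 11.9 ± 0.215 CPM with the inhibitor and 12.8 ± 2.31 CPM with DMSO (log2 fold change -0.11, approximate 95% interval -0.37 to 0.14, adjusted p 0.493). Its lowest and highest values were both in DMSO libraries, and without DMSO replicate 1 the log2 fold change was -0.26 with adjusted p 0.0357. Mrps12, part of the decoding centre, averaged 15.0 ± 1.47 CPM with the inhibitor and 17.97 ± 2.74 CPM with DMSO (log2 fold change -0.26, adjusted p 0.112). Mrps15 had 41.5, 42.1 and 41.2 CPM with the inhibitor, against 41.7, 39.0 and 41.6 CPM with DMSO. It was among the most tightly measured members, with an approximate 95% interval of -0.08 to 0.14 around a log2 fold change of 0.03.

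Mrpl11, of the centre that activates the GTPases of translation factors, averaged 32.1 ± 2.01 CPM with the inhibitor and 27.5 ± 0.767 CPM with DMSO, a rise of 0.22 (adjusted p 0.0238). Mrps2, counterpart of a bacterial small-subunit protein, averaged 43.3 ± 2.60 CPM with the inhibitor and 37.5 ± 2.21 CPM with DMSO, a rise of 0.21 (adjusted p 0.0344). Both calls were near the threshold. That of Mrpl11 was lost without inhibitor replicate 1, DMSO replicate 1 or DMSO replicate 3, at adjusted p 0.0538 to 0.0868, and that of Mrps2 without inhibitor replicate 1, inhibitor replicate 3, DMSO replicate 2 or DMSO replicate 3, at adjusted p 0.0555 to 0.122. With GC and length trends removed, Mrps2 had an adjusted p of 0.0622. Mrpl41 and Mrps34 had log2 fold changes of 0.09 and 0.11 and did not pass, with adjusted p 0.36 and 0.391, though Mrpl41 passed with library totals alone (0.0472). Mapk8ip3 on the opposite strand covers 63.4% of the exon bases of Mrps34, and Nme3 on the same strand 37%, so its reads depend on how overlaps were counted.

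Mrpl20, the most abundant member per kilobase, had 49.5, 46.7 and 49.3 CPM with the inhibitor, against 40.5, 45.1 and 46.5 CPM with DMSO. The groups were apart by a narrow margin, and the gene did not pass the test (log2 fold change 0.14, SE 0.07, adjusted p 0.111). It did pass with library totals alone and with GC and length trends removed, at adjusted p 0.0094 and 0.0095. Of the small subunit, Mrps21 and Mrps15 had the highest levels per kilobase, at 45.3 and 43.9 CPM. Mrps21 had 20.9, 14.5 and 23.2 CPM with the inhibitor, against 23.5, 23.3 and 16.1 CPM with DMSO. Both groups held high and low libraries (log2 fold change -0.10, SE 0.20). Mrpl2 was spread likewise, with 14.7, 14.5 and 20.1 CPM with the inhibitor, against 19.4, 24.3 and 13.4 CPM with DMSO, and had the largest SE of all members, 0.21. For these genes a change of the size seen in most called members was not detectable with 3 libraries a group. Mrpl53 (log2 fold change 0.23, SE 0.21) shares 88% of its exon bases with Gm42688 on the same strand, and how reads there were shared between them is not known; without inhibitor replicate 3 its adjusted p was 0.0355, at a log2 fold change of 0.44.

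The ratio of large-subunit to small-subunit mRNA overlapped between the groups by sums, but not by medians when members were placed by name. Of the 49 large-subunit members 15 rose (30.6%) and 6 fell (12.2%), with a median log2 fold change of 0.09. Of the 29 small-subunit members 7 rose (24.1%) and 2 fell (6.9%), with a median of 0.11. Over all tested genes the shares were 24.9% and 26.5%. Large-subunit mRNA summed to 1474 ± 22.9 CPM with the inhibitor and 1383 ± 67.5 CPM with DMSO (SD, n = 3 each). Small-subunit mRNA summed to 717 ± 7.8 CPM with the inhibitor and 661 ± 14.7 CPM with DMSO. The ratio of the large sum to the small sum was 2.06, 2.03 and 2.08 in the inhibitor libraries, against 2.04, 2.15 and 2.10 in the DMSO libraries, and the groups overlapped. The ratio of the median levels was 1.133, 1.225 and 1.172 with the inhibitor, against 1.326, 1.227 and 1.293 with DMSO, apart by a narrow margin. With members placed by structure it was 1.421, 1.318 and 1.257, against 1.328, 1.243 and 1.294, and the groups overlapped. These differences were not tested.

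**Figure D3:**
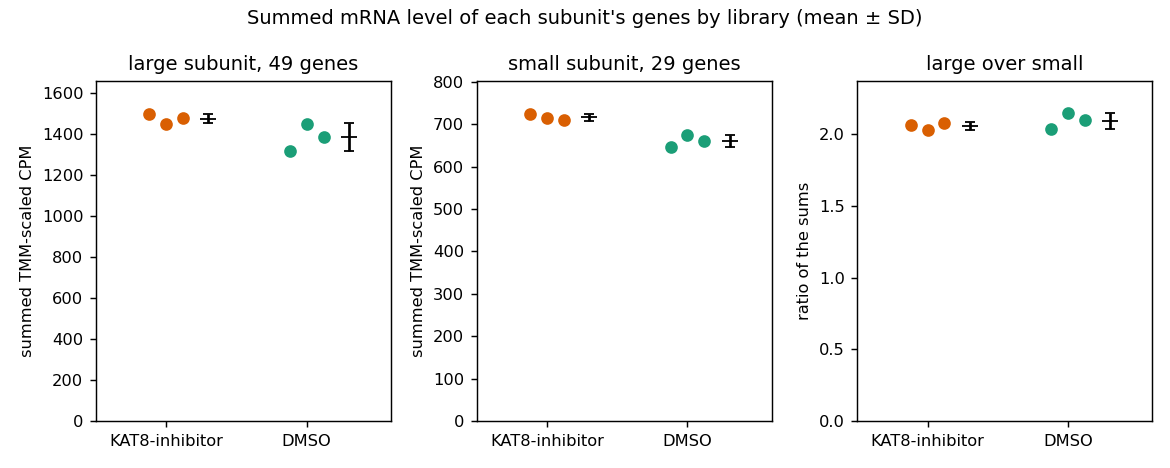
Summed TMM-scaled CPM of the large-subunit genes (left panel) and small-subunit genes (middle panel) in each library, and the ratio of both sums (right panel), with mean and SD (n = 3 per group, inhibitor left of DMSO). The ratios run from 2.03 to 2.08 with the inhibitor and from 2.04 to 2.15 with DMSO.

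Names and structure do not fully match. Mrps18a and Mrps30 are held in the large subunit, and Mrps36 is now assigned to the 2-oxoglutarate dehydrogenase complex of the citric acid cycle. Placed by structure, 16 of 51 large-subunit members rose (31.4%) and 6 fell (11.8%), with a median of 0.09. Of 26 small-subunit members 6 rose (23.1%) and 2 fell (7.69%), with a median of 0.12. Over all tested genes 24.9% rose and 26.5% fell. Mrps30 had 35.2, 34.8 and 29.9 CPM with the inhibitor, against 24.9, 27.0 and 25.9 CPM with DMSO, a rise of 0.36 (SE 0.08, adjusted p 0.00581). Mrps36 was scarce, with 5.05, 3.995 and 3.49 CPM with the inhibitor, against 3.76, 5.87 and 4.27 CPM with DMSO, and the groups overlapped (log2 fold change -0.16, adjusted p 0.557). By the class that the nomenclature of ribosomal proteins gives, 10 of the 46 members with a bacterial counterpart rose (21.7%) and 3 fell (6.52%), with a median of 0.09. That nomenclature counts Mrps18a and Mrps18b as mitochondrion-specific, though both are relatives of a bacterial protein. Of the 31 mitochondrion-specific members 12 rose (38.7%) and 5 fell (16.1%), with a median of 0.13. All 5 that fell, Mrpl54, Mrpl52, Mrpl50, Mrpl40 and Mrpl57, belong to the large subunit, and of the 10 mitochondrion-specific small-subunit members 4 rose and the other 6 did not pass. The difference between these classes was not tested.

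Features of the members were set beside their calls and fold changes. The median mRNA length was 1526 bases (661 to 5000) for the 22 that rose and 906 bases (440.5 to 2877) for the 8 that fell. For the rest it was 1052 bases (446.5 to 6073), and the ranges overlapped widely. Across the 78 members, the Spearman correlation of the log2 fold change was 0.30 with mRNA length and -0.18 with GC content. It was 0.43 with the mean level, which comes from the same 6 libraries as the test. Across tested protein-coding genes these correlations were 0.02, -0.06 and -0.01. The members share libraries and overlap in size and level, so these values describe the set and carry no p. When trends of each library's levels with GC content and mRNA length, fitted over all tested genes, were removed, 26 members were higher and 8 lower. Members lie on 17 chromosomes, with the most, 11, on chromosome 11, of which 1 rose and the other 10 did not pass. Over all tested genes 24.9% rose and 26.5% fell.

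Exons of 33 members overlap those of another annotated gene. Among these 10 rose (30.3%) and 1 fell (3.03%), and among the 45 members with no such overlap 12 rose (26.7%) and 7 fell (15.6%). Over all tested genes the shares were 24.9% and 26.5%. Of the exon bases of Mrpl19 and Mrpl43, which rose, 36% and 33.4% overlap Gcfc2 and Twnk on the opposite strand. Gcfc2 and Twnk held 1436 and 1997 counts over all libraries. The part of these overlaps in the counts was not tested.

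Promoter windows, from 250 bases before to 50 bases after the RefSeq start (GRCm38.p6), were held for 69 members. Mrpl54 and Mrps28, which had the largest falls, had no window. Printed here are the windows of Mrpl52, with the next largest fall, and of the 3 members with the largest rises. Each is 5′ to 3′ on the gene's strand, with capitals marking a match to a searched motif on either strand. The Mrpl52 window is chr14:54426659-54426958 (plus strand), the Mrpl42 window chr10:95501900-95502199 (minus), the Mrpl49 window chr19:6057706-6058005 (minus) and the Mrps22 window chr9:98601630-98601929 (minus).
Mrpl52: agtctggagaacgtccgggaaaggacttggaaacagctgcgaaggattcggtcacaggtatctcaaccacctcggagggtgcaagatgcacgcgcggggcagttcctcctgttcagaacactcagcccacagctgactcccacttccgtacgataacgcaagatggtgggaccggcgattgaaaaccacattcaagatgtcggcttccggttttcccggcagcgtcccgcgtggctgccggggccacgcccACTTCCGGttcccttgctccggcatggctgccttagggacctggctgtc
Mrpl42: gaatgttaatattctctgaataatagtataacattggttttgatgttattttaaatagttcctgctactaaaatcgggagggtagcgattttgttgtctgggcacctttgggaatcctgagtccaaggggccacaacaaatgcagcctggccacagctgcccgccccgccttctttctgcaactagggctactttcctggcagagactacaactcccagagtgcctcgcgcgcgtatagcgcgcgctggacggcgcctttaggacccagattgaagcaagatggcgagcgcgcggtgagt
Mrpl49: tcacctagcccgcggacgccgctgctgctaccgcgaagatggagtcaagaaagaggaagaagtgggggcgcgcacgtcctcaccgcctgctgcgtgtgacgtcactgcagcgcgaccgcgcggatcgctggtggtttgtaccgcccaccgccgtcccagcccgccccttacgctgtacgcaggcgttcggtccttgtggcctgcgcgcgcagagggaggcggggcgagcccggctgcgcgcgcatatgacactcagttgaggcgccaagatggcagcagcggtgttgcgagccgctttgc
Mrps22: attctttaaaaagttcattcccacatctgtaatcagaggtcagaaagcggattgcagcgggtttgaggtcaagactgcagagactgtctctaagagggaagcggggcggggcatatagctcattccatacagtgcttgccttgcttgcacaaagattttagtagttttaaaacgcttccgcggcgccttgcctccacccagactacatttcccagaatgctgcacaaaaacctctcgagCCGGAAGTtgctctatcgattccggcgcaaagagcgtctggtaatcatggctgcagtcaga
The searched letters were GCGCATGC (core of the NRF1 site), CCGGAAGT (core of sites bound by ETS factors), ATGGCGGC (core of the YY1 site) and CACGTG (E-box). Both Mrpl52, which fell, and Mrps22, which rose, hold the ETS core, and the windows of Mrpl42 and Mrpl49 hold none of the 4 strings. Among windows not printed, that of Mrps18c, which fell, holds the ETS core and the E-box. The window of Mrpl50, which also fell, holds the YY1 core. The YY1 core was in 12 of 69 member windows (17.4%), against 5.14% of the 10037 windows of tested protein-coding genes. The NRF1 core was in 8 (11.6%), against 5.48%, the ETS core in 11 (15.9%), against 8.45%, and the E-box in 5 (7.25%), against 10.1%. The YY1 core was in 4 of 20 windows of members that rose, 1 of 5 of those that fell and 7 of 44 of the rest, so its share did not separate the calls. In the same order, the ETS core was in 4, 2 and 5 windows, the NRF1 core in 3, 0 and 5, and the E-box in 1, 1 and 3. With 5 windows among those that fell, these differences were not tested. A match is a description of letters and says nothing of binding.

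Many members start back to back with another gene. A gene on the opposite strand began within 1000 bases upstream for 18 of 78 members (23.1%), against 9.99% of tested protein-coding genes. In 17 of these pairs the partner was tested, and in 3 pairs both genes changed the same way, in 3 they changed in opposite ways, and in 11 at least 1 did not pass. Mrps18b and its partner Ppp1r10, a regulatory subunit of protein phosphatase 1 that starts 45 bases away, both rose, by 0.47 and 0.97. Mrpl37 and Cyb5rl, 120 bases apart, also both rose, and Mrpl57 and Ska3, a kinetochore gene 49 bases away, both fell. Mrpl49 rose, while Fau, which starts 59 bases away and encodes a cytosolic ribosomal protein fused to a ubiquitin-like protein, fell to 113 ± 5.27 CPM with the inhibitor, against 181 ± 28.8 CPM with DMSO (log2 fold change -0.68, adjusted p 0.000862). Mrpl50 and Zfp189, and Mrps18c and the helicase gene Helq, were the other opposite pairs, with the member lower and the partner higher by 0.56 and 0.39. Mrpl54 starts 26 bases from Apba3, which averaged 41.5 ± 1.82 CPM with the inhibitor and 39.9 ± 2.50 CPM with DMSO (log2 fold change 0.06, adjusted p 0.515).

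**Figure D4:**
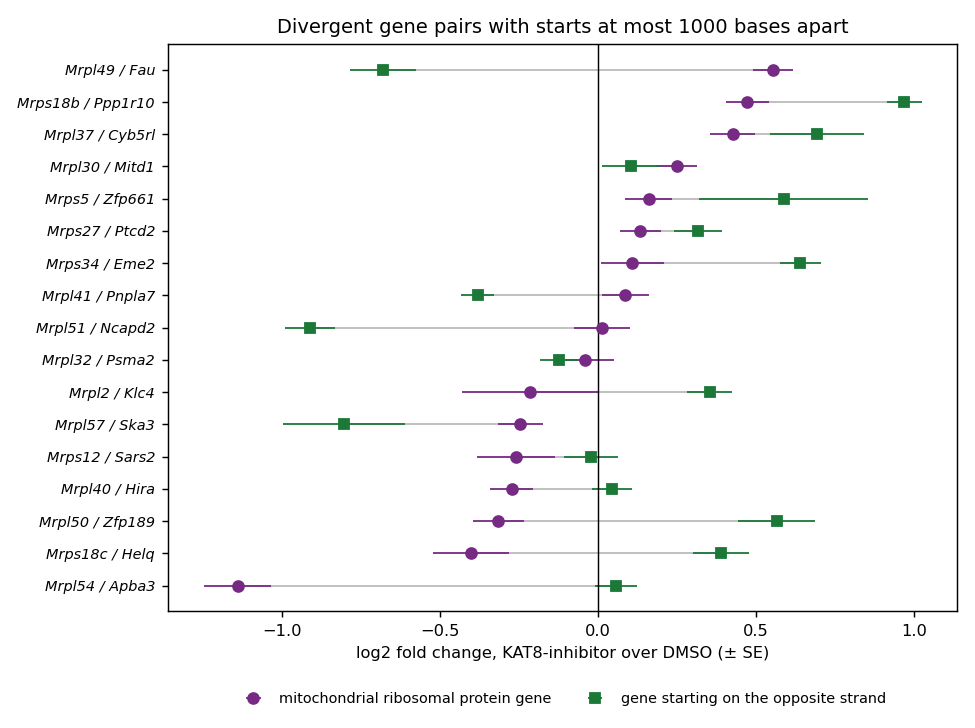
Log2 fold change (inhibitor over DMSO, ± SE) of 17 members (circles) and of the gene starting within 1000 bases on the opposite strand (squares), joined by a line. Mrpl49 and Fau lie on opposite sides of 0, and Mrpl54 is at -1.14 while Apba3 is at 0.06.

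The rest of the mitochondrial translation apparatus was set beside the members. Among all tested genes, 24.9% rose and 26.5% fell. Of 5 mitoribosomal proteins with names of another kind, 2 rose and 1 fell. Ptcd3, a small-subunit pentatricopeptide protein, rose to 43.5 ± 1.18 CPM with the inhibitor, against 33.7 ± 1.45 CPM with DMSO (log2 fold change 0.37, adjusted p 0.00107). Gadd45gip1, a large-subunit protein, fell to 16.3 ± 1.26 CPM with the inhibitor, against 25.6 ± 3.59 CPM with DMSO (log2 fold change -0.66, adjusted p 0.00148).

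Of 27 factors that assemble the mitoribosome 13 rose (48%) and 1 fell, with a median log2 fold change of 0.33. Fastkd2, an RNA-binding protein needed for the large subunit, had 38.1, 38.5 and 39.7 CPM with the inhibitor, against 22.5, 24.4 and 24.9 CPM with DMSO. These groups were far apart, and the rise was 0.70 (SE 0.06, adjusted p 5.05e-05). Trub2, a pseudouridine synthase, rose by 0.48 (adjusted p 0.000166), and Nsun4, which methylates mitochondrial ribosomal RNA, was the member of the list that fell, by 0.44 (adjusted p 0.00471). The difference between assembly factors and members was not tested.

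Of 16 tested translation factors 6 rose (37.5%) and 1 fell, with a median of 0.21. Mtrf1, a release factor, averaged 9.15 ± 0.986 CPM with the inhibitor and 5.41 ± 0.480 CPM with DMSO, and rose by 0.75 (adjusted p 0.00127). Mtif2, the initiation factor that places the first tRNA, rose by 0.51 (adjusted p 0.00129). Slirp, an RNA-binding partner of Lrpprc that stabilises mitochondrial mRNAs, fell by 0.63 (adjusted p 0.00272). Of 20 mitochondrial tRNA synthetases and subunits of the related amidotransferase 10 rose (50%) and the other 10 did not pass, with a median of 0.26. Gatc, a subunit of that amidotransferase, rose by 0.52 (adjusted p 0.00198), and Hars2, the histidyl-tRNA synthetase, by 0.34 (adjusted p 0.0021).

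Of the 13 mitochondrially encoded mRNAs, which mitoribosomes translate, 4 fell and the other 9 did not pass, with a median of -0.05. The share that fell, 30.8%, was near the 26.5% of all tested genes. The most significant, mt-Nd1, a subunit of respiratory complex I, averaged 1645 ± 38.8 CPM with the inhibitor and 1959 ± 76.3 CPM with DMSO (log2 fold change -0.25, adjusted p 0.00209). Its neighbour mt-Nd2, also of complex I, fell by 0.18 (adjusted p 0.00892).

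Cytosolic ribosomal proteins, which build the ribosome that makes the members themselves, mostly fell. Where 22 of 78 members rose and 8 fell, with a median log2 fold change of 0.10, 2 of 76 tested cytosolic genes rose and 52 fell, with a median of -0.48. Rpl12 and Rpl3 rose, by 2.03 and 0.23. Cytosolic ribosomal proteins have many processed pseudogenes, so their counts depend on how multiply matching reads were handled. The difference between these lists was not tested, and both were measured in the same 6 libraries.

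**Figure D5:**
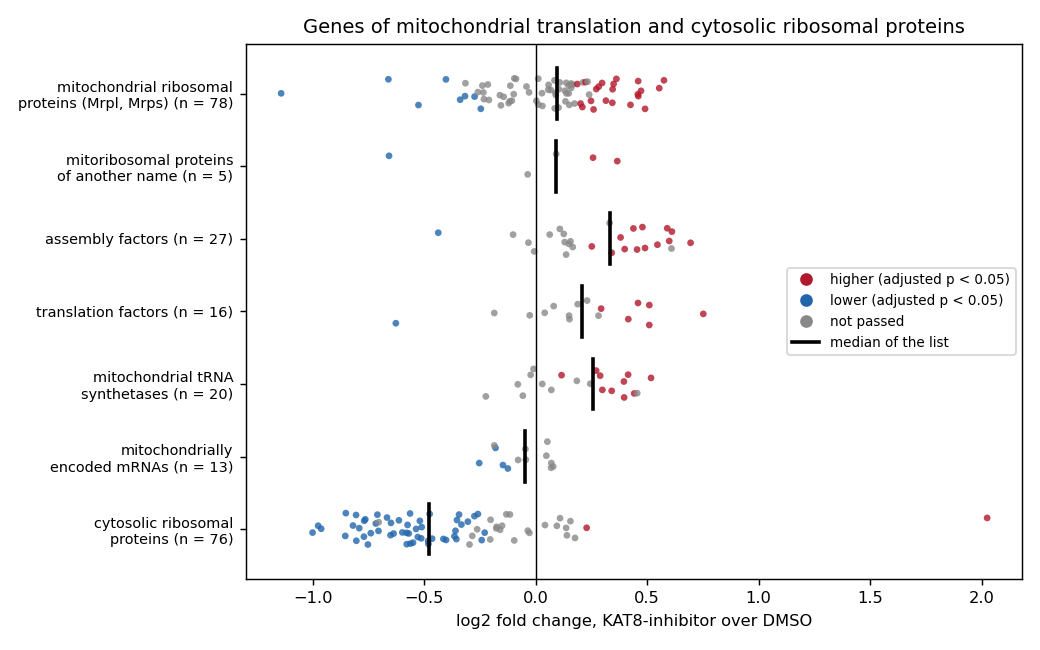
Log2 fold change (inhibitor over DMSO) of each tested gene of 7 lists, coloured by call, with the list's median as a vertical bar. The median is 0.10 for the 78 mitochondrial ribosomal proteins, 0.33 for assembly factors and -0.48 for cytosolic ribosomal proteins.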

How the data were processed

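The deposited table, made by the authors, gives raw counts for each Ensembl gene and library, with no normalization. The submitters' processing notes name mm10, edgeR, HISAT2 and StringTie 1.3.0. Their roles, the counter, the use of strand and the handling of multiply matching reads are not stated in the sources used. Per the labels' protocols, mRNA was selected with capture beads. Libraries were grouped by title. The labels do not name separate animals, so the p-values reflect only library-to-library spread, possibly technical. Within a group the chi-square per degree of freedom between libraries was 9.12 to 14.1, so none was a copy of another.

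Counts were tested in R 4.3.3 with edgeR 4.0.16 (quasi-likelihood test, TMM scaling, filterByExpr with a minimum count of 10, pretreatment as the only factor), with a threshold of 0.05 on p adjusted (Benjamini-Hochberg) over 13815 genes. Fold changes are inhibitor over DMSO, SE is the absolute log2 fold change divided by √F, and levels are TMM-scaled CPM. A count of 0 allows up to 0.12 to 0.163 CPM (3 counts, counting error only). The procedure was tested on simulated counts. Gene models and mRNA lengths (median of protein-coding transcripts) are from GENCODE for mm10, and promoter windows from RefSeq. The windows used here cover 69 members, without Mrpl4, Mrpl13, Mrpl15, Mrpl19, Mrpl38, Mrpl54, Mrps28, Mrps34 or Mrps35.

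Members and lists were chosen with earlier results of these data known, so no set test was run. Members named are the 6 largest falls and rises, the 2 most abundant per kilobase of each subunit and 14 with a role of their own. Other members are named where a count is spelled out or where overlap or spread singled them out, after their values were seen. From each companion list come the 2 smallest p and any gene moving against the list, except for 1 gene that is not reported here. The translation factor Mtres1 has no row under that symbol. Alternatives were median-of-ratios scaling, library totals, no filter or a mean of 5 CPM, DESeq2 1.42.0, a replicate block, an adjusted p under 0.01, removal of GC and length trends, subunits by structure, and leaving out each library.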

Additional observations from a re-analysis of the deposited data

How the results depend on the processing

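No member that rose or fell changed sign under any alternative run. Among named members that did not pass, the log2 fold change was 0.01 for Mrps21 with library totals alone and 0.08 without inhibitor replicate 2, against -0.10. Without DMSO replicate 2 it was 0.05 for Mrps36, against -0.16, and -0.0048 for Mrps15, against 0.03. With libraries scaled by their totals alone, 38 members were higher and 4 lower (large subunit 24 and 3, small subunit 14 and 1), and the large and small medians were 0.20 and 0.22, where the median of all tested genes was 0.12. Over all tested genes the balance turned, with 4888 higher and 2842 lower, against 3446 and 3667. At an adjusted p under 0.01, 10 members were higher and 5 lower, with 6 higher in the large subunit, 4 higher and 1 lower in the small subunit, and 2257 genes higher over all tested genes. Leaving out 1 library at a time gave 16 to 21 members higher and 6 to 12 lower. In the large subunit it gave 10 to 15 higher and 5 to 10 lower, with a median of 0.07 to 0.10, and in the small subunit 5 to 7 higher and 1 to 2 lower, with a median of 0.07 to 0.13. Over all tested genes it gave 2851 to 3269 higher and 3230 to 3611 lower. The highest counts of lower members, 12 in all and 10 in the large subunit, came without DMSO replicate 1, where 17 members were higher. The count of lower small-subunit members was 1 without inhibitor replicate 1, DMSO replicate 2 or DMSO replicate 3. DESeq2 called 20 members higher and 7 lower. Of the 22 members that rose 10 passed under every alternative, among them Mrpl42, Mrpl49, Mrps22, Mrps18b, Mrps31 and Mrpl45, and of the 8 that fell 4 did, Mrpl54, Mrps28, Mrpl52 and Mrpl15. The cause of these changes was not tested.

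Same-numbered libraries did not deviate together (correlations of -0.0337, -0.00297 and 0.0243 over all tested genes). With few libraries a group, such values cannot show whether the numbers pair the samples, and the labels do not say. With the replicate number as a block, 21 members were higher and 8 lower, and 3215 and 3510 of all tested genes. Under the block Mrpl11 and Mrpl19 were not called, at adjusted p 0.0502 and 0.0592, and Mrps23 was, at 0.0482.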
